A study of Mus musculus with 2 samples.

Results

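Ednrb C4b Cd163 synovial macrophages were cells of the arthritic mouse joint defined by a mean score over Ednrb, C4b and Enpep. Among cells that had 500 or more genes and no more than 10% mitochondrial transcripts, macrophages were those in which C1qa, C1qb and C1qc summed to at least 10 unique molecular identifiers (UMIs, counts of single captured transcripts) and Ccl17 and Cd209a to under 5. Each was scored on 7 sets of 3 genes, and members were selected where the Ednrb, C4b and Enpep score was the highest of the 7 and at least 0.5. This gave 827 members of 7322 gated macrophages, 513 of 4242 in the β-glucan library and 314 of 3080 in the PBS library. The 2 libraries held 7196 and 5760 barcodes, of which 5696 and 4553 passed the filter.

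The study asked how an innate immune stimulus given before disease alters synovial myeloid cells. Wild-type C57BL/6 mice, 7 to 10 weeks old when the experiments began, received a single intraperitoneal injection of 1 mg β-glucan, a fungal cell wall sugar polymer, or PBS alone. After 7 days both groups underwent arthritis, K/BxN serum transfer by the study's methods and the series design and an antibody cocktail with lipopolysaccharide by the sample labels, and at day 17 the myeloid cells of the hind paws were sorted as CD45+CD11b+. Each group was 1 droplet library from 4 mice, both groups were arthritic, and no label ties a cell to a mouse. The methods name a peptide form from Trametes versicolor and a form from S. cerevisiae, and which of them was used here is not given in the sources used here. With 1 library per group differences between the groups lack any replicate check, and none has a p-value. The intervals are at 95% and cover counting error only.

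Synovial macrophages divide into those that form a barrier-like lining along the joint cavity and those of the tissue below it, which lie near vessels and nerves. Ednrb encodes the endothelin receptor type B, C4b a component of the classical and lectin complement pathways, and Enpep aminopeptidase A, which cleaves angiotensin II. Cd163 encodes the scavenger receptor for haemoglobin bound to haptoglobin, and Plekhg5 a guanine nucleotide exchange factor of small GTPases. In GRCm39, Ednrb lies on chromosome 14 (104052053 to 104081900, minus strand), C4b on chromosome 17 (34947354 to 34962912, minus strand) and Enpep on chromosome 3 (129062824 to 129126369, minus strand). Cd163 lies on chromosome 6 (124281606 to 124307560, plus strand) and Plekhg5 on chromosome 4 (152156955 to 152199872, plus strand).

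The 250 bases before the start of Ednrb, Enpep and Cd163 are shown 5′ to 3′ because these genes are the 3 that set the cells apart for which RefSeq (GRCm38.p6) gave a single promoter. Capitals mark a match to GAGGAA (the core bound by PU.1), TGCTGA (a half-site of MAF factors), CACGTG or CATGTG (E-boxes bound by MITF and TFE factors), searched on both strands.
Ednrb, chr14:103843702-103843951, minus strand: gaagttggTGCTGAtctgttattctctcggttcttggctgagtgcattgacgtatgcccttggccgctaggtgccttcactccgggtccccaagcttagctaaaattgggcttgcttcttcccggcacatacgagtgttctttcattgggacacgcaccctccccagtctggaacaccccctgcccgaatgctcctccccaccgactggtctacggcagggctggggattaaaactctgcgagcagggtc
Enpep, chr3:129332750-129332999, minus strand: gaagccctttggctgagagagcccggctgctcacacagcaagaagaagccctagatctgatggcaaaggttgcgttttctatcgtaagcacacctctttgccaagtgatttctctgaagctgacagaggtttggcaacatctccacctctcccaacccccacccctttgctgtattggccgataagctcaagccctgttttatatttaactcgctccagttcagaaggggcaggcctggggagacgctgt
Cd163, chr6:124304401-124304650, plus strand: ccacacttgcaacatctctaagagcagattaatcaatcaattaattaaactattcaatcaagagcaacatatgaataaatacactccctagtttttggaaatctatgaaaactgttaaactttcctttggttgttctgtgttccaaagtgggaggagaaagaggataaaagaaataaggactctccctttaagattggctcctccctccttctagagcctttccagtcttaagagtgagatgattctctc
The Ednrb window held 1 match, TGCTGA on the gene's own strand starting 242 bases before the start site, and the other windows held none, as did the 3 windows of Plekhg5. Of 32851 promoter windows of the same length, 16.1% held TGCTGA or its reverse complement, 23.3% GAGGAA, 6.02% CACGTG and 12.3% CATGTG. A match is a description of the letters, and its absence says nothing of the factor.

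The genes of the rule describe the members and are no finding. With UMIs summed over members and scaled to counts per 1e+06 UMIs (CPM), Ednrb was at 611 in β-glucan and 587 in PBS members, against 25.3 and 22.6 in the other gated macrophages. C4b was at 284 and 347 CPM in members against 15 and 12.4, and Enpep at 105 and 102 CPM against 2.48 and 1.65. A UMI of all 3 genes was found in 198 β-glucan and 133 PBS members, of exactly 2 in 235 and 133, and of 1 only in 80 and 48. Ednrb was detected in 89.5% and 87.3% of members, C4b in 74.9% and 81.5%, and Enpep in 58.7% and 58.3%. The selection thus did not require any 1 of these genes in each cell.

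Free RNA in droplets gives UMIs in cells that do not express a gene, so shares were compared with B cells after each cell was thinned to 4000 UMIs. At that depth Ednrb was detected in 74.1% of β-glucan and 74.7% of PBS members, in 6.62% and 6.85% of other macrophages, and in 1.24% and 0.5% of B cells. Before thinning these shares were 89.5% and 87.3% in members, 14.2% and 12.5% in other macrophages, and 1.10% and 0.459% in B cells, at median depths of 11699 and 12994, 13591 and 15948, and 5447 and 5954 UMIs. C4b was found in none of 242 and 200 thinned B cells, which allows shares of up to 1.51% and 1.83% by the exact binomial interval. Thinning left out 30 and 14 members, 91 and 52 other macrophages, and 31 and 18 B cells.

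Cd163 and Plekhg5 took no part in the rule, although they were measured in the same cells, and both were higher in members. Cd163 was at 1185 CPM in β-glucan and 1150.4 CPM in PBS members, against 233 and 210 CPM in the other macrophages. Its mean log2 ratio over the 2 libraries was 2.40. Plekhg5 was at 661 and 630 CPM in members against 144 and 122 CPM, a mean log2 ratio of 2.28. After thinning, Cd163 had a UMI in 67.5% and 68.0% of members, 25.3% and 24.7% of other macrophages, and 6.2% and 2.0% of B cells.

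**Figure D1:**
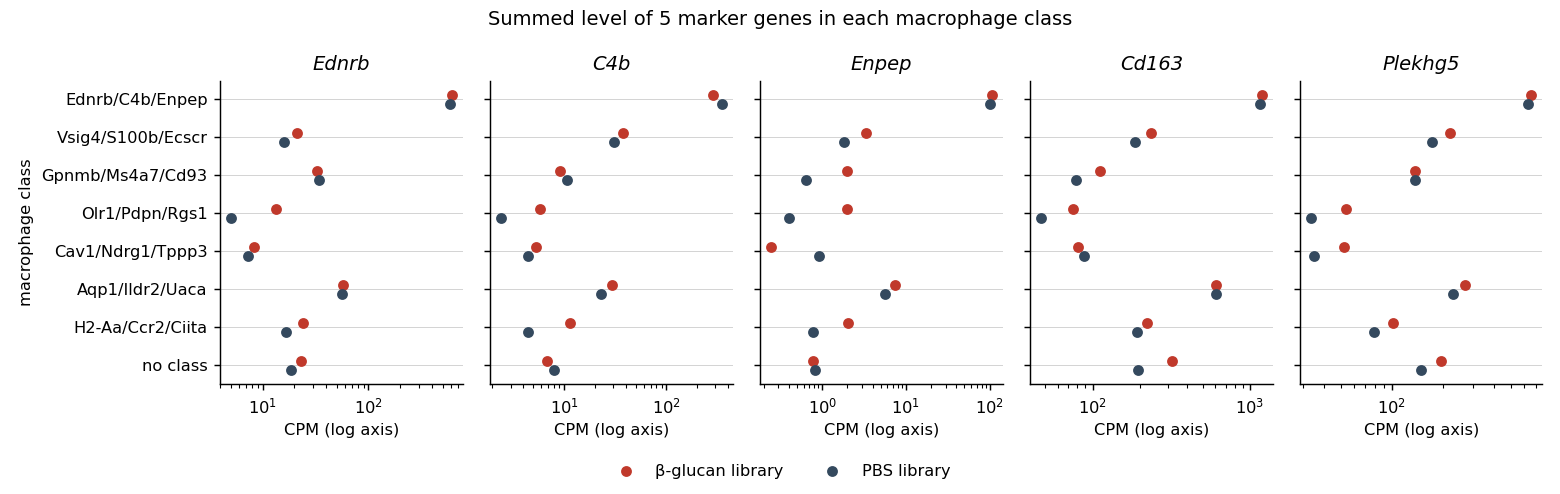
Summed level of 5 marker genes (CPM, log axis, a panel each) in the 7 macrophage classes and in gated cells with no class, red for the β-glucan and dark blue for the PBS library. The Ednrb/C4b/Enpep class is highest in each panel, and the Aqp1/Ildr2/Uaca class follows for Ednrb, Enpep, Cd163 and Plekhg5.

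No single class came next to the members for every gene. In the class led by Aqp1, Ildr2 and Uaca, Cd163 was at 610 and 606 CPM and Plekhg5 at 267 and 230 CPM, next highest to the members. Ednrb was at 57.9 and 56.2 CPM in that class, while the Vsig4/S100b/Ecscr class had 21.4 and 16.1 CPM. For C4b the Vsig4/S100b/Ecscr class came next, at 37.5 and 31.0 CPM. Selenop, at 5389 and 5851 CPM in members, was at 3339 and 3262 CPM in the Gpnmb/Ms4a7/Cd93 class and 2257 and 2091 CPM in the Aqp1/Ildr2/Uaca class, and Igf1, at 448 and 463 CPM in members, was at 337 and 316 CPM and at 159 and 173 CPM. The order by Ednrb, C4b and the scores rests on values the rule used. The Aqp1/Ildr2/Uaca score was the second highest in 254 β-glucan members (49.5%) and 123 PBS members (39.2%), followed by the Gpnmb/Ms4a7/Cd93 score in 115 (22.4%) and 110 (35%).

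The boundary of the class was graded. The score had a median of 1.65 (0.509 to 6.0) in β-glucan members and 1.72 (0.506 to 5.54) in PBS members. Scores of 0.5 to 0.7 were held by 38 and 16 members, and 26 and 17 cells led by this score lay between 0.3 and 0.5 and were left out. Just inside the threshold Ednrb was at 337 and 402 CPM, C4b at 75.7 and 61.1 CPM and Cd163 at 670 and 646 CPM. Just outside they were at 209 and 166 CPM, 56.8 and 87.1 CPM, and 954 and 199 CPM. Another score also reached 0.5 in 223 (43.5%) and 140 (44.6%) members.

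Each of 11 general macrophage markers was detected in members, at levels above or below those of the other macrophages, but C1qa, C1qb and C1qc are genes of the gate and their detection was fixed by it. Csf1r, the receptor for macrophage colony-stimulating factor, was detected in 99.6% of β-glucan and 99.0% of PBS members. Adgre1, which encodes F4/80, had 420 and 436 CPM in members against 427 and 399 CPM in the other macrophages. Lyz2, lysozyme, was at 6338 and 7463 CPM against 12215 and 13101 CPM, and Fcgr1, a high-affinity Fc receptor, was detected in 33.3% and 43.6% of members. Monocyte markers summed to 433 and 414 CPM in members against 2598 and 2933 CPM, with Fn1 the most abundant of the 8 genes. Markers of proliferating cells summed to 29.6 and 44.5 CPM against 88.9 and 131 CPM, led by Stmn1. Dendritic cell markers were at 38.0 and 30.3 CPM against 31.2 and 27.4 CPM, led by Cd209a, a gene of the gate.

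UMIs of cells outside the lineage were also present and were not equal between the libraries. The 7 neutrophil markers summed to 884 CPM in β-glucan and 202 CPM in PBS members, led by S100a9 at 333 and 47.9 CPM. The 6 B cell markers summed to 114 and 18.5 CPM, led by Ebf1, and the 7 fibroblast markers to 412 and 201 CPM, led by Dcn. These UMIs lay in few cells. With at least 10 UMIs of the neutrophil list there were 22 β-glucan and 4 PBS members, which held 96.3% and 87.4% of that list's UMIs in members. For the B cell list these were 12 and 1 members, holding 94.9% and 56.6%, and for the fibroblast list 5 and 1, holding 86.6% and 72.8%.

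Over 6 lists (these 3 with T or NK, mast or basophil, and endothelial cells), 37 β-glucan members (7.21%, 5.13% to 9.80%) and 6 PBS members (1.91%, 0.704% to 4.11%) held at least 10 UMIs of a list. Among other macrophages the shares were 6.06% and 5.28%. Such members had a median of 15324 and 20129 UMIs, against 11584 and 12914 in the rest. T or NK cell markers summed to 16.2 and 11.1 CPM in all members, mast cell or basophil markers to 31.9 and 5.12 CPM with Mcpt8 at 0, and endothelial markers to 17.0 and 8.24 CPM with Cldn5 at 0. Mural cell markers were at 30.2 and 24.3 CPM, mostly Cspg4. Osteoclast markers were at 99.3 and 102 CPM, mostly Ctsk, with Ocstamp and Calcr at 0, while Schwann cell or melanocyte markers (2.44 and 3.56 CPM, with Sox10, Dct and Tyr at 0) and erythroid markers (1.07 and 0.668 CPM, with Hba-a1 at 0) were lower. Without the members that held UMIs of the 6 lists some of the calls below are lost or gained. For several named genes whose calls change the values are given beside them.

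Members made up 12.1% (11.1% to 13.1%) of gated macrophages with β-glucan and 10.2% (9.15% to 11.3%) with PBS. Of all filtered cells they were 9.01% (8.28% to 9.78%) and 6.90% (6.18% to 7.67%). The gated macrophages were themselves 74.5% and 67.6% of the filtered cells. Without the cells holding UMIs of other lineages the shares of macrophages were 12% and 10.5%. The score rests on C4b, Ednrb and Enpep. Within members C4b had a log2 ratio of β-glucan over PBS of -0.29, under the size called below. The intervals of Ednrb and Enpep between the libraries held 0 over all members. The share has no replicate and a difference between the groups was not tested.

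To place these cells among synovial macrophages, each gene was compared between members and the other gated macrophages within each library. A gene was called where the log2 ratio was at least 1 in size, in the same direction, in both libraries. Of 6818 genes whose mean reached 20 CPM, 154 (2.26%) were higher and 159 (2.33%) lower in members. Because the members were chosen from the same cells, the calls are a description. The median over all measured genes was 0.03.

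**Figure D2:**
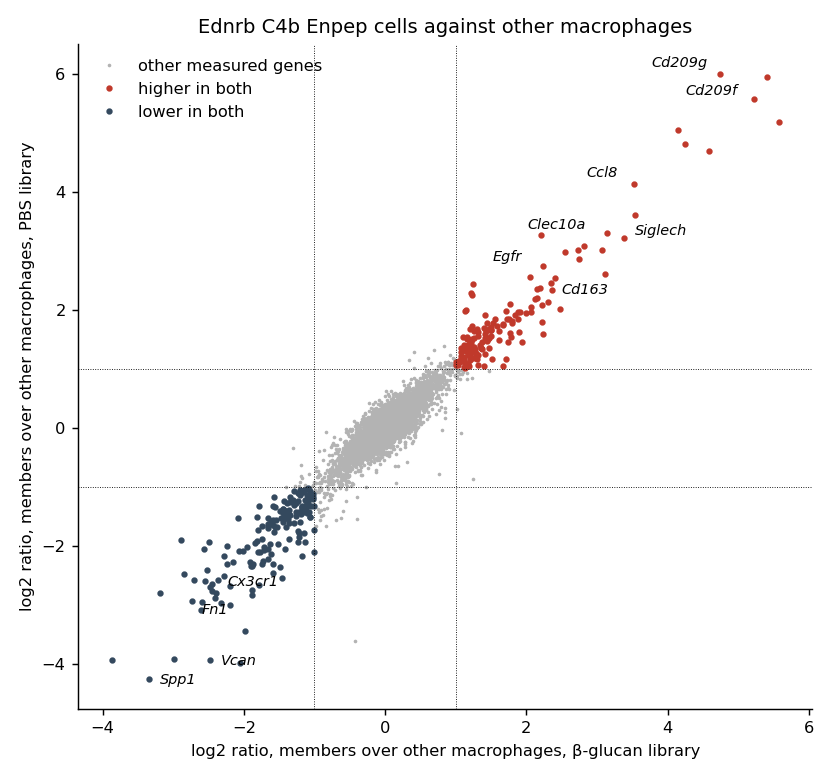
Log2 ratio of each measured gene between members and other gated macrophages in the β-glucan library (x axis) and the PBS library (y axis), with genes higher in both in red, lower in both in dark blue and dotted lines at 1 and -1. Cd209f and Cd209g lie at the upper right and Spp1, Vcan and Fn1 at the lower left.

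With the rule genes set aside, the 3 highest mean ratios of the genes reaching 50 CPM in each library were of C-type lectins of the Cd209 cluster, homologues of the pathogen-binding receptor DC-SIGN. Cd209f was at 125 CPM in β-glucan and 193 CPM in PBS members, against 3.35 and 4.02 CPM in other macrophages, with log2 ratios of 5.22 (4.99 to 5.46) and 5.58 (5.35 to 5.82). Cd209g was at 58.7 and 83.9 CPM against 2.19 and 1.31 CPM, and Cd209d at 103.6 and 110 CPM against 5.85 and 3.30 CPM. Cd209b, under that limit at 50.6 and 33.8 CPM against 1.06 and 0.93 CPM, had a mean log2 ratio of 5.38, above the 4.60 of Cd209d. Reads of these close paralogues may be split between them. Cd209f had a UMI in 26.9% of β-glucan and 29.6% of PBS members, and Cd209g in 18.7% and 22.9%.

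Clec10a, a lectin that binds galactose sugars, was at 258 and 325 CPM against 29.3 and 32.8 CPM, and was detected in 68.6% and 73.6% of members. Siglech, a sialic acid-binding lectin best known from plasmacytoid dendritic cells and microglia, was at 66.0 and 54.3 CPM against 6.35 and 5.85 CPM. It was found in 39.6% and 38.9% of members. Ccl8, a chemokine that attracts monocytes and T cells, was at 154 and 192 CPM against 13.4 and 10.9 CPM. Ccl24, an eosinophil-attracting chemokine, was at 317 and 365 CPM against 61.5 and 71.9 CPM.

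Egfr, the receptor of epidermal growth factor and also among the 15 highest, was at 258 CPM in β-glucan and 437 CPM in PBS members against 55.0 and 65.5 CPM, and was found in 79.5% and 86.0% of members. In the Aqp1/Ildr2/Uaca class Egfr was at 143 and 199 CPM, above the value over all other macrophages. Gfra2, a co-receptor of the neurotrophic factor neurturin, was at 129 and 144 CPM against 19.1 and 19.6 CPM. The other genes were Mctp2, which overlaps another gene on the same strand and is uncertain, Coro2b, Chp2 and Sema6a, with mean log2 ratios of 3.57, 2.94, 2.77 and 2.48. Col3a1, a fibrillar collagen, had a mean log2 ratio of 2.74, but 93.2% and 90.7% of its UMIs lay in 5 members of each library. Without cells holding UMIs of other lineages its ratio was 0.48, while for the other 14 genes it was between 2.36 and 5.53. Col3a1 is in the fibroblast list by which those cells were left out, so its fall was fixed by that choice. The other 14 genes are in none of the lists, so their values are no comparison for it.

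Among the 10 genes lowest in members, Spp1, which encodes osteopontin, was at 33.9 and 19.1 CPM in members against 344 and 364 CPM in other macrophages, with log2 ratios of -3.34 (-3.54 to -3.15) and -4.25 (-4.57 to -3.94). Fn1, fibronectin, was at 330 and 335 CPM against 2189 and 2563 CPM. Vcan, a proteoglycan of monocytes, was at 16.8 and 5.34 CPM against 94.0 and 81.6 CPM. Cx3cr1, the fractalkine receptor of lining macrophages, was at 47.4 and 29.4 CPM against 249 and 205 CPM, and F11r, a tight junction protein, at 22.5 and 28.3 CPM against 161 and 156 CPM. Cav1, Cspg4, Gngt2, Bhlhe40 and Itga6 had mean log2 ratios of -2.997, -2.77, -2.65, -2.64 and -2.61. Cav1 belongs to a competing set of the rule, and Itga6 overlaps another gene on its strand.

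Of the 18 genes of resident interstitial macrophages, 14 were higher and none lower, with a median log2 ratio of 1.53. Mrc1, the mannose receptor, was at 3144 CPM in β-glucan and 3331 CPM in PBS members against 1116 and 1058 CPM, and at 1609 and 1711 CPM in the Gpnmb/Ms4a7/Cd93 class. Timd4, a receptor for phosphatidylserine on dying cells, was at 74.5 and 79.2 CPM against 16.8 and 17.1 CPM. It was at 47.9 and 45.9 CPM in the Vsig4/S100b/Ecscr class and at 38.0 and 42.5 CPM in the Aqp1/Ildr2/Uaca class. Folr2, the folate receptor beta, was at 709 and 821 CPM against 308 and 325 CPM, and at 697 and 731 CPM in the Vsig4/S100b/Ecscr class. Gas6, F13a1, Igf1, Cbr2, Selenop, Maf, Pf4, Fcna, Colec12, Cd209b and Cd209f were higher as well. Lyve1, a hyaluronan receptor, reached 1.08 and 0.99 and missed the call, which it met without cells holding UMIs of other lineages. Calls were also missed by Stab1 and Ninj1. Lyve1 was at 1483 and 1380.1 CPM in members and higher still in the Vsig4/S100b/Ecscr class, at 1707 and 1528 CPM, and in the Aqp1/Ildr2/Uaca class, at 1691 and 1764 CPM.

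The 6 measured lining genes were lower without exception, with a median of -1.98. Cx3cr1, Vsig4, S100b, Trem2, F11r and Axl made up this list, of which Vsig4 and S100b belong to a competing set of the rule. Vsig4 was at 1770.4 and 1847.3 CPM in the Vsig4/S100b/Ecscr class and at 136 and 157 CPM in members. The Aqp1/Ildr2/Uaca class lay above members, at 373 and 273 CPM. The Gpnmb/Ms4a7/Cd93 class lay below them, at 53.3 and 36.7 CPM. Of 7 measured genes of MHC class II presentation, 6 were lower (median -1.87), H2-Aa being of a competing set. H2-Aa was at 4032.5 and 4726.9 CPM in the H2-Aa/Ccr2/Ciita class and at 214 and 277 CPM in members. The Aqp1/Ildr2/Uaca class lay below members, at 77.2 and 111 CPM. The Gpnmb/Ms4a7/Cd93 class lay above them, at 473 and 509 CPM. Cd74, the invariant chain, was at 629 and 859 CPM against 2214 and 3261 CPM. Ctss, the protease that cleaves it, had log2 ratios of -0.51 and -0.50.

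Haem and iron handling had 5 of 14 measured genes higher and none lower (median 0.20). Hmox1, haem oxygenase 1, was at 856 CPM in β-glucan and 827 CPM in PBS members against 232 and 211 CPM. Tfrc, the transferrin receptor, was at 142 and 120 CPM against 25.6 and 29.5 CPM, and Trf, transferrin, at 303 and 389 CPM against 122 and 126 CPM. Ncoa4, the receptor that takes ferritin to lysosomes, had log2 ratios of 1.12 and 1.20, and Cd163 was the fifth gene. The ferritin chains Fth1 and Ftl1 were not called, with log2 ratios of -0.43 and -0.33 and of -0.09 and 0.03.

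Of 5 measured complement components, C4b is a gene of the rule and C1qa, C1qb and C1qc are genes of the gate, so their median (0.44) is a description of the selection. Cfp, which encodes properdin, was the component outside both and was higher. Cfp was at 237 and 260 CPM against 87.5 and 93.5 CPM. Of the complement receptors and regulators, Vsig4 was lower. In the endothelin and angiotensin list only the rule genes Ednrb and Enpep were called of 5 measured (median -0.00), and Lnpep and Anpep had log2 ratios between -0.14 and 0.06.

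Secreted factors and their receptors were mixed. Of 9 measured chemokines, Ccl6, Ccl7, Ccl8, Ccl24 and Pf4 were higher and Cxcl16 lower (median 1.04). Without cells holding UMIs of other lineages Cxcl2 was lower too, at a mean log2 ratio of -2.45. Ccl7 was at 37.7 and 89.0 CPM against 16.3 and 18.2 CPM. Among 6 growth factors Igf1 was higher and Pdgfa and Pdgfb lower (median -0.57). Without those cells Pdgfa lost its call, although its mean log2 ratio was -1.12. Among 14 growth factor and cytokine receptors Egfr was higher and Tgfbr1 lower (median 0.45). Of 4 cytokine genes measured none was called (median 0.30). Of 10 genes of alternative activation, Mrc1, Clec10a, Mgl2, Ccl24 and F13a1 were higher (median 1.02), and Tgm2 was among the lower.

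Phagocytic receptor genes were mixed. Of 17 efferocytosis and scavenger receptor genes, Gas6, Pros1 and Timd4 were higher and Axl, Itgav and Itgb5 lower (median 0.16). Fcgrt, the neonatal Fc receptor, was the only call of 12 in the Fc receptor and Dectin-1 list (median 0.10), at 462 and 494 CPM against 193 and 190 CPM. Of 13 Spp1 and lipid-associated genes, Spp1, Trem2, Cd9 and Fabp5 were lower (median -0.66), whereas Apoe had log2 ratios of -0.30 and 0.05. Of 8 matrix and protease genes, Fn1, Mmp14, Adam8 and Plaur were lower (median -0.55).

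Among 18 macrophage transcription factors, Maf was higher and Pparg and Bhlhe40 lower (median -0.10). Maf, which shapes resident macrophages, was at 1439 and 1524 CPM against 684 and 596 CPM. Of 12 glucocorticoid response genes, Cd163, Zbtb16 and Mt2 were higher (median 0.38), and without cells holding UMIs of other lineages Mt1 was higher and Sgk1 lower as well, at mean log2 ratios of 1.02 and -1.29. Of 90 GTPase regulator genes, Plekhg5, Tbc1d4 and Arhgef3 were higher and Arhgap24, Srgap3, Dock5 and Arhgap22 lower (median 0.15), beside 2.26% higher and 2.33% lower over all measured genes. None was called among 18 immediate-early genes (median -0.47), but Nr4a1 and Nr4a2 were lower without cells holding UMIs of other lineages, at mean log2 ratios of -1.60 and -1.39 (list median -0.71). None was called among 4 interferon-stimulated genes (median 0.40) and 7 osteoclast genes (median -0.12).

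**Figure D3:**
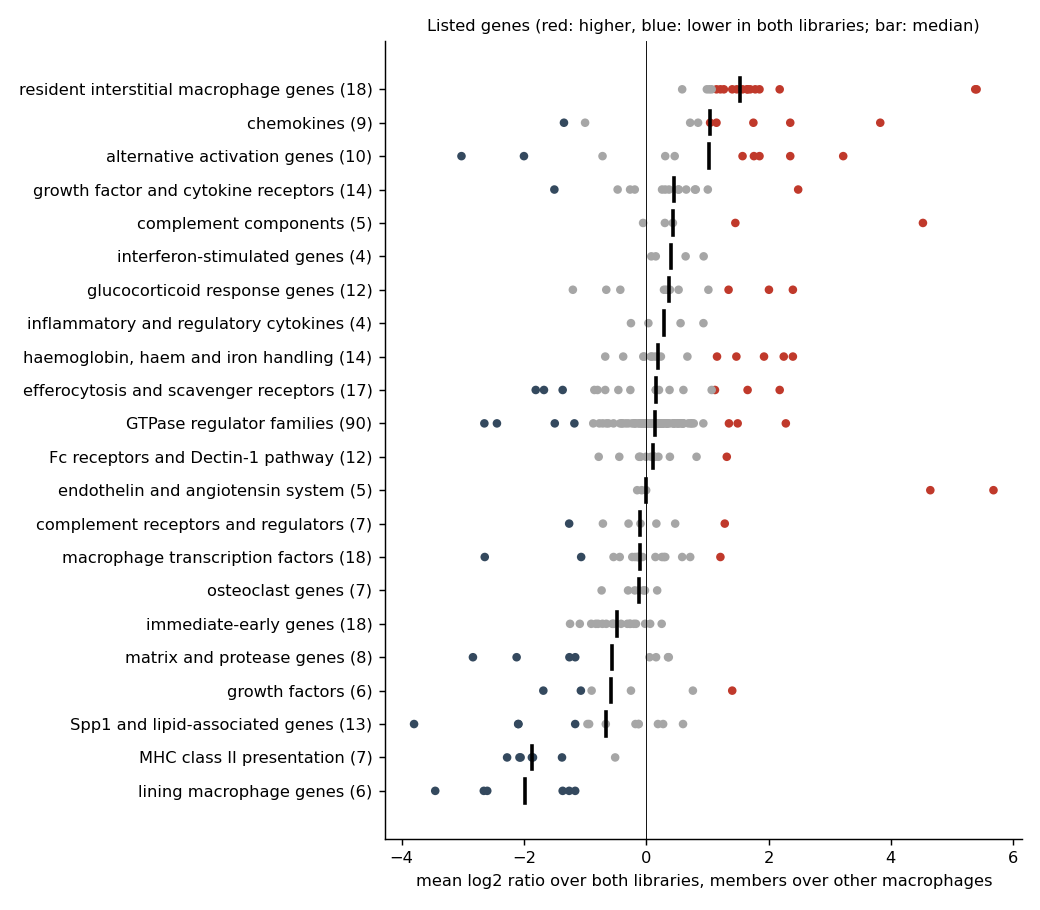
Mean log2 ratio over the 2 libraries, members over other gated macrophages (x axis), for each measured gene of 22 lists (number measured in brackets), red where higher and dark blue where lower in both libraries, with a bar at the median. Resident interstitial genes have the highest median (1.53) and lining genes the lowest (-1.98).

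Correlations with the score within members were weak. Over 483 β-glucan and 300 PBS members thinned to equal depth, Spearman's correlation with the score was 0.23 and 0.12 for Cd163, 0.30 and 0.34 for Mctp2, and 0.19 and 0.27 for Ccl8. The cells of a library share its depth and its free RNA.

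To see how β-glucan pre-treatment bore on these cells, summed members were compared between the 2 libraries, which held 6546652 and 4492388 UMIs in members. A gene was called where the log2 ratio was at least 0.3 in size and its counting interval held no 0. Of 6765 genes whose mean reached 20 CPM, 487 (7.2%) were higher and 319 (4.72%) lower with β-glucan, and the median over all measured genes was 0.00. Without members holding UMIs of other lineages, 430 (6.39%) and 311 (4.62%) of 6733 were called, of which 378 and 252 were called before.

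Gene length moved with these calls. The median log2 ratio was 0.14 over genes spanning at least 100 kb and -0.09 over those under 10 kb. Genes of at least 100 kb made up 44.1% of those called higher, 10.0% of those called lower and 16.7% of those measured. They supplied 22.0% of UMIs in β-glucan and 20.1% in PBS members, and 19.5% and 17.8% in other macrophages. When 290 members of each library were matched on that share, 340 (5.04%) genes were higher and 328 (4.86%) lower of 6750. Of these, 256 and 183 were also called over all members.

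Mitf, a transcription factor of osteoclast and melanocyte development, was at 641 CPM in β-glucan and 378 CPM in PBS members, a log2 ratio of 0.76 (0.68 to 0.84). In the other macrophages it was at 693 and 408 CPM, with the same log2 ratio of 0.76 (0.74 to 0.79). It was detected in 93.4% and 90.1% of members, and 5 cells held 5.67% and 8.24% of its UMIs. The ratio was 0.79 without cells holding UMIs of other lineages and 0.60 in members matched on long-gene UMIs, Mitf itself spanning 214 kb.

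Of the other genes that the study compares between the groups, 3 were higher with β-glucan in members. Vav3, a GTPase exchange factor, was at 579 and 450 CPM, a log2 ratio of 0.36 (0.28 to 0.44). Myo5a, a motor protein of vesicle transport, was at 1180.5 and 933 CPM, with a ratio of 0.34 (0.29 to 0.39). In matched members their ratios were 0.25 and 0.20, under the size of a call. Cx3cr1 was at 47.4 and 29.4 CPM, with a ratio of 0.69 (0.39 to 0.99), from a gene found in 13.5% and 12.1% of members, 5 of which held 31.6% and 42.4% of its UMIs. Its ratio was 0.49 without members holding UMIs of other lineages, 0.38 with a score threshold of 1 and 1.02 in matched members.

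Klf2, a transcription factor of quiescence, was lower at 224 CPM in β-glucan and 334 CPM in PBS members, with a log2 ratio of -0.58 (-0.68 to -0.47) beside -0.32 in other macrophages. Ratios under the size of a call were 0.30 for Elmo1, 0.29 for Map3k5, 0.27 for Mef2c, 0.25 for Ern1, 0.23 for Rock2 and 0.23 for Clec5a, with intervals above 0. Without members holding UMIs of other lineages Ern1 reached 0.30 and was called. Hpgds, Plekhg5 and Mapk14 had ratios of 0.08, 0.07 and 0.03, whose intervals held 0. Csf1r had a ratio of -0.10 (-0.15 to -0.06). Elmo1 and Mapk14 overlap another gene on their strand and are uncertain.

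Nr4a1, an immediate-early nuclear receptor, turned with a few cells. It was at 36.0 CPM in β-glucan and 31.6 CPM in PBS members, a ratio of 0.19 (-0.12 to 0.50). Without members holding UMIs of other lineages it was at 14.1 and 30.6 CPM, with a ratio of -1.12 (-1.53 to -0.71).

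**Figure D4:**
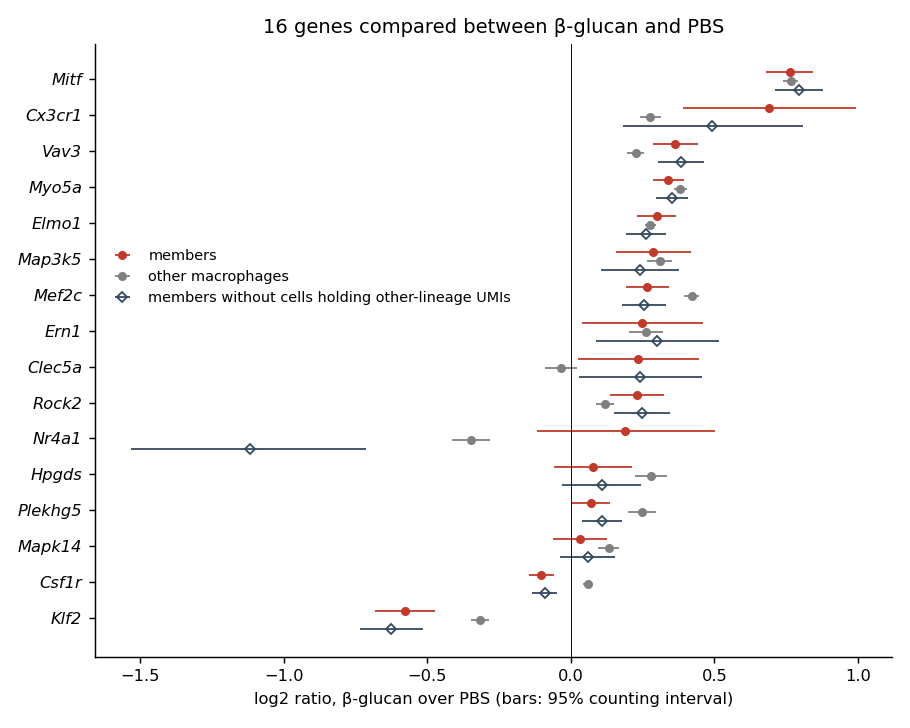
Log2 ratio of β-glucan over PBS (x axis, bars the 95% counting interval) for 16 genes in members (red), in other gated macrophages (grey) and in members without cells holding UMIs of other lineages (open diamonds). Mitf is near 0.76 in both kinds of macrophage, Klf2 is below 0 in each, and Nr4a1 moves from 0.19 to -1.12.

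The levels of the rule genes within members are partly fixed by the shared threshold on their score and are given as a description. Ednrb had a ratio of 0.06 (-0.01 to 0.13), Enpep of 0.05 (-0.12 to 0.22) and C4b of -0.29 (-0.39 to -0.19). Cd163, which took no part in the rule, had a ratio of 0.04 (-0.01 to 0.09). None of the 4 reached the size of a call.

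The largest ratios with β-glucan were of genes of other lineages. S100a9 and S100a8, the calprotectin chains of neutrophils, were at 333 and 258 CPM in β-glucan members and at 47.9 and 52.3 CPM in PBS members. Ebf1, a B cell factor, was at 67.7 and 11.8 CPM. Il1b, interleukin-1 beta, was at 225 and 63.9 CPM, a ratio of 1.82 (1.64 to 2.01). The 5 members richest in Il1b held 45.3% of its UMIs with β-glucan and 96.5% with PBS. Without the 37 and 6 members holding UMIs of other lineages, Il1b was at 1.87 and 2.52 CPM and S100a9 at 3.40 and 2.06 CPM. Hdc, Dcn, Il1r2, Col1a2, Col1a1 and Csf3r, with ratios of 1.16 to 1.93, likewise came to at most 23.6 CPM in either library. S100a9, S100a8, Csf3r, Il1r2, Ebf1, Dcn, Col1a2 and Col1a1 are in the lists by which those members were left out. The fall of these genes was thus fixed by that choice. Il1b and Hdc are in none of the lists.

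Only Ripor2 and Pla2g4a of the 12 highest were still called without those members. Pla2g4a, cytosolic phospholipase A2, which frees arachidonic acid, was at 74.1 CPM in β-glucan and 36.7 CPM in PBS members, a ratio of 1.01 (0.75 to 1.28), and was found in 48.7% and 32.2% of members. It had a ratio of 0.67 in other macrophages and 0.96 in matched members. Ripor2 was at 127 and 63.0 CPM, with a ratio of 1.01, or 0.72 without those members.

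**Figure D5:**
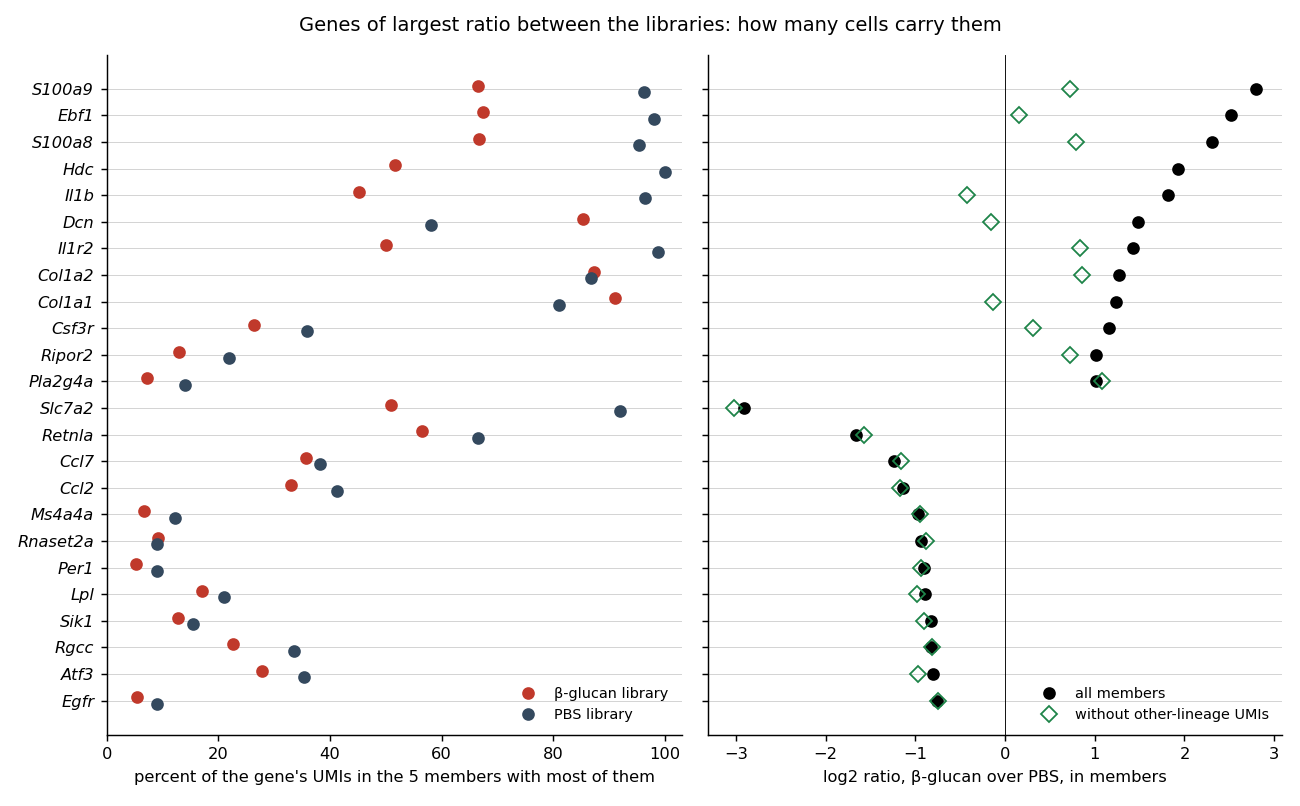
For the 12 highest and 12 lowest ratios between the libraries within members, the left panel gives the percent of each gene's UMIs in the 5 members with most of them, by library, and the right panel the log2 ratio of β-glucan over PBS in all members (filled) and without members holding UMIs of other lineages (open, none for Hdc, whose PBS count was then 0). Il1b, Dcn and Col1a1 cross 0, to ratios whose intervals hold 0, Pla2g4a stays near 1, and the lowest genes stay below 0.

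Without those members, and chosen after their values were seen, long genes were among the next highest ratios. Specc1, which spans 266 kb, was at 218 CPM in β-glucan and 120 CPM in PBS, a ratio of 0.86 (0.71 to 1.01) that was 0.79 in matched members. Arid5b, a DNA-binding protein whose gene spans 187 kb, was at 176 and 101 CPM, a ratio of 0.81 (0.65 to 0.97) that was 0.72 in matched members. Pdgfc, a platelet-derived growth factor, was at 354 and 225 CPM, with a ratio of 0.65 (0.54 to 0.77) beside 0.81 in the other macrophages. Fgd4, an exchange factor of Cdc42, was at 221 and 141 CPM, with a ratio of 0.64 (0.50 to 0.78). Cd209b had a ratio of 0.68 that turned to -0.43 in matched members, with 29.9% and 48.7% of its UMIs in 5 members.

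The lowest ratios with β-glucan included a transporter, chemokines and a growth factor receptor. Slc7a2, a cationic amino acid transporter, was at 7.79 CPM in β-glucan and 58.8 CPM in PBS members, where 5 cells held 92.0% of its UMIs. Retnla, the alternative activation product RELMα, was at 202 and 639 CPM, a ratio of -1.66 (-1.76 to -1.57), and 5 cells held 56.5% and 66.5%. It was found in 17.7% and 28.3% of members, and its ratio in other macrophages was -1.65. The ratio in members was -1.13 with equal weight per cell and -2.84 in matched members. Without cells holding UMIs of other lineages it was -1.57 in members and -1.03 in other macrophages.

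Ccl2 and Ccl7, which attract monocytes through CCR2, were at 49.5 and 37.7 CPM in β-glucan members and at 109 and 89.0 CPM in PBS members. Their log2 ratios were -1.14 (-1.35 to -0.94) and -1.24 (-1.47 to -1.01) in members and -0.26 and -0.16 in other macrophages. Ccl2 had a UMI in 18.1% and 27.1% of members. When cells were thinned to 8000 UMIs before scoring, the ratio of Ccl2 was -0.44. The difference between members and other macrophages was not tested.

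Egfr was at 258 CPM in β-glucan and 437 CPM in PBS members, a ratio of -0.76 (-0.85 to -0.66), beside -0.25 in other macrophages, and its UMIs were spread over 79.5% and 86.0% of members. It was lower with β-glucan in the Aqp1/Ildr2/Uaca class too, at 143 and 199 CPM, and higher in the Vsig4/S100b/Ecscr class, at 67.5 and 54.0 CPM. Ms4a4a, a tetraspan membrane protein, was at 140 and 275 CPM, with a ratio of -0.97 (-1.10 to -0.85). Lpl, lipoprotein lipase, was at 119 and 222 CPM, with a ratio of -0.90 (-1.03 to -0.76). Egfr, Ms4a4a and Lpl had ratios of -0.95, -1.04 and -0.75 in matched members, and of -0.75, -0.95 and -0.99 without members holding UMIs of other lineages. Rnaset2a, Per1, Sik1, Rgcc and Atf3 had ratios of -0.94, -0.90, -0.83, -0.82 and -0.81, the first from a pair of near-identical genes whose reads may be split. Sik1 had -0.37 when cells were thinned to 8000 UMIs, and Rgcc ranged from -1.41 under a stricter filter on detected genes and mitochondrial share to -0.50 in matched members.

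By list, MHC class II presentation had 5 of 7 measured genes lower with β-glucan and none higher, a median of -0.37 beside 0.00 over all genes, of which 4.72% were lower. Cd74 was at 629 and 859 CPM (-0.45) and H2-Ab1 at 186 and 259 CPM (-0.48), with 22.6% and 38.9% of Cd74 UMIs in 5 members. The list's median in other macrophages was -0.50. Of 17 immediate-early genes, 7 were lower (median -0.21): Fosb, Fosl2, Jund, Atf3, Dusp1, Klf2 and Klf4. Klf4 was at 454 and 662 CPM (-0.54). Without members holding UMIs of other lineages 11 of 17 were lower (median -0.50), Egr1, Ier2, Nr4a1 and Btg2 being added, and in matched members 7 were lower (median -0.13).

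Of 12 glucocorticoid response genes, 6 were lower with β-glucan and 1 higher (median -0.24), beside 4.72% and 7.2% of all measured genes. Tsc22d3, which encodes GILZ, was at 345 and 506 CPM (-0.56), Fkbp5, a chaperone of the receptor, at 201 and 292 CPM (-0.54), and Per1, a clock gene, at 46.1 and 86.4 CPM (-0.90). Dusp1, Sgk1 and Errfi1 were also lower and Mt2, a metallothionein, higher. The median in other macrophages was -0.19. Dusp1 is in both of these lists.

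GTPase regulators had 18 of 90 genes higher and 4 lower (median 0.09, and 0.13 in other macrophages), beside 7.2% and 4.72% of all measured genes. The share that was lower is near that of all genes. Srgap2, which acts on Rac1, was at 588 CPM in β-glucan and 404 CPM in PBS members (0.54). Dock8, an activator of Cdc42, was at 223 and 157 CPM (0.51). The genes lower were Arhgef3, Tbc1d4, Tbc1d17 and Dennd4a, of which Arhgef3 and Tbc1d4 were higher in members than in other macrophages. In matched members 7 were higher and 3 lower (median 0.05), and without members holding UMIs of other lineages 15 and 4. Arhgap6, Arhgef18 and Arhgap31 then lost their calls, at ratios of 0.28, 0.09 and 0.29. Dennd4a moved from -0.33 to -0.88.

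The remaining lists are described beside the 7.2% of all measured genes that were higher and the 4.72% that were lower, so a single call in a list of 18 genes is near those shares. Some of the calls were lost without members holding UMIs of other lineages. Of 16 transcription factors, Mitf and Zeb2 were higher and Cebpb lower (median 0.13), Zeb2 at 3271 and 2363 CPM and Cebpb at 230 and 334 CPM. Of 15 efferocytosis genes, Mertk, Itgav, Itgb5 and Cd300a were higher and Cd68 lower (median 0.08), Cd68 moving from -0.30 to -0.29 and losing its call without those members. Mertk, a receptor for bridging proteins on dying cells, was at 378 and 295 CPM (0.36), or 0.14 in matched members. Of 8 alternative activation genes, Il4ra and Irf4 were higher and Retnla and Clec10a lower (median -0.14), Clec10a moving from -0.33 to -0.26 and losing its call without those members. Il4ra, the interleukin-4 receptor chain, was at 135 and 97.9 CPM (0.47).

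Of 12 Fc receptor and Dectin-1 genes, Malt1, Plcg2 and Vav3 were higher and Fcgr1 lower (median -0.04), Plcg2 moving from 0.30 to 0.21 and losing its call without members holding UMIs of other lineages. Of 14 growth factor and cytokine receptors, Il4ra, Il1r2 and Nrp1 were higher and Egfr lower (median 0.07), and of 7 growth factors Pdgfc alone was called (median -0.04). Of 10 chemokines Cxcl2 was higher and Ccl2, Ccl7 and Ccl8 lower (median -0.15). Ccl8 had -0.32, or -0.25 and no call without those members and -0.05 in matched members. Cxcl2 had 53.8% and 81.9% of its UMIs in 5 members and a ratio of 0.03 without members holding UMIs of other lineages. Il1b and Ptgs2 were the calls of 4 cytokine genes (median 0.71), and neither was measurable without those members. Among interferon-stimulated genes Oasl2 was higher and Bst2 and Gbp2 lower of 6 (median -0.05). Gbp2 had 22.1% and 74.0% of its UMIs in 5 members and a ratio of -0.28 with equal weight per cell.

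The lists that describe the members by tissue niche and by haem, complement and matrix function held few calls. Of 18 resident interstitial genes Cd209b was higher and Cd209f lower (median -0.08). Cd209f was at 125 and 193 CPM, a ratio of -0.62 (-0.76 to -0.48). Of 15 haem and iron genes Trf was lower (-0.36, median -0.06), of 6 complement components C3 (-1.09, median -0.23), of 5 endothelin and angiotensin genes Anpep (-0.36, median 0.04), and of 7 matrix genes Mmp19 (-0.51, median -0.03). C3 had 87.4% and 95.7% of its UMIs in 5 members and was at 2.04 and 3.20 CPM, with no call, without members holding UMIs of other lineages. Tfrc was then higher (0.33), and F11r (-0.38) and Plaur (-0.52) lower. Of 4 lining genes Cx3cr1 was higher (median -0.23), and of 12 Spp1 and lipid-associated genes Spp1 was higher and Lpl lower (median -0.20). None was called among 7 complement receptors and regulators (median 0.00) and 7 osteoclast genes (median 0.01).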

How the data were processed

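Both libraries were analysed as deposited. The authors made counts of UMIs per gene and barcode with Cell Ranger 7.0.0 on GRCm39 with Ensembl annotation. The submitters' processing notes list mm10 too, without a role. The deposited counts carry no normalization and hold barcodes that passed cell calling. The β-glucan library held 81611849 UMIs and the PBS library 73874602, and 7 barcode sequences occur in both libraries, none among members. Whether reads in introns were counted is not given in the sources used here.

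Each gene was scaled per cell to 10000 UMIs as log1p, standardised over gated cells, and averaged over a set to give the score. UMIs were then summed over cells of a library and given as CPM. Ratios are log2 with an exact binomial interval, and shares have Clopper-Pearson intervals. No test across samples was possible with 1 library per group. Since the members and gene lists were chosen with earlier results of these data known, neither is independent of them. Named genes were the 5 markers, 16 genes that the study compares, the 15 highest and 10 lowest ratios between members and others, the 12 highest and 12 lowest between the libraries (at least 50 CPM, called, without mitochondrial, ribosomal protein or unnamed genes, and for the libraries with the same sign at equal weight per cell), and listed genes. Of the listed symbols 3 are not analysed here. Values of some other listed genes are not reported here. Of 32524 genes 31870 matched the annotation by ID.

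Scrublet's automatic threshold marked 0 and 3 cells, so its calls were not used and doublets were kept. The 260 and 166 cells of highest score, 23 and 10 of them members, were left out as an alternative. Leaving out cells with at least 10 UMIs of another lineage's markers was chosen after seeing the data. On simulated sums of 6765 genes with 200 changed, 98.5% of changes of 1.5-fold between the libraries were called, with 1.55% of unchanged genes. Between members and others 28.0% of changes of 2-fold, which lie at the call's threshold, and 100% of 3-fold were called. The simulated sums held counting error only, with no spread between cells, mice or libraries. These shares therefore do not give the rate of false or missed calls in the real data. The tools were Python 3.11.15, pandas 2.3.3, scipy 1.17.1, numpy 2.4.6, scanpy 1.11.5 for Scrublet and edgeR 4.0.16 for TMM factors.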

Additional observations from a re-analysis of the deposited data

Results flagged for a closer look

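Genes named for the comparison between the libraries were flagged where members and other macrophages had β-glucan over PBS ratios of opposite sign. Neither interval was to hold 0, which left 3 genes. The genes so named were the markers, those that the study compares and the highest and lowest ratios between the libraries. The difference was not tested in any of the 3. Nr4a1 (0.19 in members and -0.35 in other macrophages) and Clec5a (0.23 and -0.03) also differed in sign. They were not flagged because an interval of each held 0, that of Nr4a1 in members and that of Clec5a in other macrophages. Csf1r had a log2 ratio of -0.10 in members and 0.06 in other macrophages. Atf3 had -0.81 in members, where β-glucan cells had 77.4 CPM and PBS cells 136 CPM, and 0.16 in other macrophages, at 192 and 171 CPM. In members 27.8% and 35.3% of Atf3 UMIs lay in 5 cells. C4b had -0.29 in members and 0.27 in other macrophages, where it was at 15 and 12.4 CPM, and it is a gene of the rule that chose the members. Genes named only for their ratio between members and others, or as listed genes, were not counted here. Some of them also differed in direction, Spp1, Ccl8 and Cd209g included. Spp1 was at 33.9 CPM in β-glucan and 19.1 CPM in PBS members, and at 344 and 364 CPM in other macrophages.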

How the results depend on the processing

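No paired analysis was possible because each group is 1 library. The share of members was 9.64% and 8.31% (β-glucan and PBS) with a score threshold of 1, 9.26% and 7.86% with a margin of 0.5 over the next score, and 11.03% with β-glucan when cells were thinned to 8000 UMIs. It lay inside its interval under 6 other alternatives, and also with PBS when thinned. With a minimum of 5 CPM, 266 genes were higher and 266 lower in members than in other macrophages, and 762 higher with β-glucan. With a minimum of 50 CPM these were 95, 81 and 261, with 140 lower with β-glucan, since other numbers of genes were measured. Under the remaining alternatives the counts of calls were within 1.5 times, but the genes called changed more. Of the 487 higher and 319 lower with β-glucan, 295 and 151 were still called when cells were thinned to 8000 UMIs. In members matched on long-gene UMIs 256 and 183 were. Of the 154 higher and 159 lower in members than in other macrophages, 141 and 136 were still called when thinned. Of the called ratios between the libraries, Col1a2 turned to -0.50 and Col1a1 to -0.94 with the margin of 0.5. Dcn turned to -0.52, Col1a2 to -0.91 and Col1a1 to -1.0 in members matched on long-gene UMIs. Il1b turned to -0.43, Dcn to -0.16 and Col1a1 to -0.13 without members holding UMIs of other lineages, the last alternative being chosen after seeing the data. These rest on 11 and 11, 117 and 97, and 43 and 35 UMIs, with intervals that held 0 (Il1b -1.77 to 0.92). Dcn and Col1a1 are in a list by which those members were left out, so the fall of their levels was fixed by that choice. Without the cells of highest Scrublet score, some ratios of other-lineage genes were larger, Il1b going from 1.82 to 4.03, S100a9 from 2.80 to 7.07, Hdc from 1.93 to 5.92, Dcn from 1.48 to 2.61 and Col1a1 from 1.24 to 3.46, while Ripor2 went from 1.01 to 0.81. Mitf ranged from 0.60 to 0.79 over every alternative run and Klf2 from -0.75 to -0.52. Without members holding UMIs of other lineages Hdc had no PBS count and gave no ratio. No ratio of a named gene between members and other macrophages turned. Depth limits genes under 20 CPM, and a pool of 4 mice gives no spread between animals.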
